A study of Mus musculus with 72 samples.

Results

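Genes of the NF-kB pathway were followed through the livers of mice with and without tumours. There are 10: the subunits Nfkb1, Nfkb2, Rel and Relb, the IkB proteins Nfkbia and Nfkbiz, the kinase Map3k14, the feedback gene Tnfaip3, and the targets Icam1 and Cxcl1. They were chosen with earlier results of these data known and taken by symbol, as 10 of the 20105 genes of the count table. All 10 passed the filter on low counts in both kinds of nuclei. RNA was measured in nuclei of 36 mice in 72 libraries. From every mouse, hepatocyte nuclei bound to beads and nuclei of the whole liver were sequenced separately.

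All mice, controls included, carried the CAG-Sun1/sfGFP and Albumin-Cre transgenes (Hep-INTACT mice). Cre driven by the Albumin promoter switches on a fluorescent tag on the nuclear membrane, so that hepatocyte nuclei can be bound to beads. BALB/c mice received PBS, C26 cells or NC26 cells, and C57BL/6N mice received PBS, 8025 cells or MC38 cells. Livers were collected at zeitgeber time 9 h. C26 and 8025 animals in the cachexia groups had lost over 10% of body weight, and a further C26 group was taken before cachexia. NC26 and MC38 animals are labelled as weight-stable. PBS animals were kept separately for the 4 tumour cohorts, which makes 9 groups of 4 animals. The C26 pre-cachexia and cachexia groups share the same PBS animals, so their changes against PBS are not independent. Age and sex are not in the labels, and the nuclei left in the supernatant were not analysed here.

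NF-kB is a family of dimeric transcription factors. In the classical branch, receptors for TNF, IL-1 and bacterial products switch on a kinase complex that destroys the inhibitor IkB-alpha (Nfkbia), and dimers of p50 (from Nfkb1) with Rela or Rel enter the nucleus. In the alternative branch, the kinase NIK (Map3k14) drives the processing of p100 (from Nfkb2) to p52, which pairs with Relb. Target genes include the pathway's own brakes, Nfkbia and A20 (Tnfaip3). In liver the pathway is known for its part in acute phase and inflammatory responses, in which Cxcl1, a neutrophil-attracting chemokine, and Icam1, an adhesion molecule that binds leukocytes, are known targets.

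RefSeq promoter sequences were available for 7 of the 10 genes: Nfkb2, Rel, Nfkbia, Map3k14, Tnfaip3, Icam1 and Cxcl1. Each window runs from 250 bases before to 50 bases after the start of transcription. The genes without an entry are Nfkb1, Relb and Nfkbiz. The windows were searched on both strands for a loose form of the NF-kB motif (GGG, any 5 bases, then CC) and for the stricter NF-kB consensus (GGG, a purine, any 2 bases, 2 pyrimidines, then CC). Matches may overlap, and the motifs overlap each other. All 7 genes held the loose form, as did 50.8% of the 32851 promoter windows and 53.5% of the 27025 genes with a window. The stricter consensus was found in 5 of the 7 (Nfkb2, Rel, Nfkbia, Tnfaip3 and Cxcl1), against 8.46% of all windows and 9.55% of all genes, and not in the windows of Map3k14 and Icam1. Both patterns require GGG, so related forms such as TGGAAATTCC, which the Icam1 window holds, were not counted.

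The sequences below are the 250 bases before the start of 4 genes, in the direction of transcription, with matches to the loose form on either strand in capitals (neighbouring matches run together). Cxcl1 and Nfkbia are shown because both hold GGGAATTTCC while their RNA behaved differently, Nfkb2 for its many matches, and Map3k14 because it has none to the consensus. In Cxcl1 the GGGAATTTCC match lies on the strand of the gene and begins 71 bases before the start. In Nfkbia it lies on the opposite strand, and its base farthest from the start is 29 bases before it. Builds are GRCm38.p6 for RefSeq, with the coordinates of mm10. The windows are chr5:90890995-90891244 (plus strand) for Cxcl1, chr12:55492648-55492897 (minus strand) for Nfkbia, chr19:46304487-46304736 (plus strand) for Nfkb2 and chr11:103267402-103267651 (minus strand) for Map3k14.
Cxcl1: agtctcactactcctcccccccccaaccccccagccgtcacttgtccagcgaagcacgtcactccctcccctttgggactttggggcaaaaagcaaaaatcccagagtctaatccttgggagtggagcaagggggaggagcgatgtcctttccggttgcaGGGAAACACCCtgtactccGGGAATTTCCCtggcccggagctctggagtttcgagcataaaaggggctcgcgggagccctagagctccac
Nfkbia: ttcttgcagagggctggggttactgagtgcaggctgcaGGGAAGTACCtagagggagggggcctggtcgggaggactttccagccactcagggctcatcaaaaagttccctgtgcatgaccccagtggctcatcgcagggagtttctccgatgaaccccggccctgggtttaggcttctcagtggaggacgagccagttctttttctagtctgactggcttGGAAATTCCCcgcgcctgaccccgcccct
Nfkb2: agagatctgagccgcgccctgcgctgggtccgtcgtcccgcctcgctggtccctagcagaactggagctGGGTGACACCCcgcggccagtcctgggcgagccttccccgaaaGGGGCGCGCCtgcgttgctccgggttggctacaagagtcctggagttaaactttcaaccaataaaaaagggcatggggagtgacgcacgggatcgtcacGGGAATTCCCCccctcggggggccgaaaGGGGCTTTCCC
Map3k14: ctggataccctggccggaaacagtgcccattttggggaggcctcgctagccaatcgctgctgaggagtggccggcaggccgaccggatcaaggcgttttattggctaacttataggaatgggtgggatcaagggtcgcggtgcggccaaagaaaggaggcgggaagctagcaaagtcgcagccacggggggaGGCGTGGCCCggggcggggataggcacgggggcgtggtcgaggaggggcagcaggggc
A match describes letters in these windows only. No binding was measured here.

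Counts were taken over whole gene spans, introns included. In mm10 coordinates the spans are chr3:135584655-135691547 (Nfkb1), chr19:46304737-46312090 (Nfkb2), chr11:23741729-23770970 (Rel), chr7:19606222-19629438 (Relb), chr12:55489409-55492647 (Nfkbia), chr16:55811377-55838641 (Nfkbiz), chr11:103219764-103267401 (Map3k14), chr10:19000910-19015410 (Tnfaip3), chr9:21015960-21028796 (Icam1) and chr5:90891245-90893115 (Cxcl1). Other annotated genes overlap 3.65% of the span of Nfkb1 (Gm43430), 5.34% of Map3k14 (1700028N14Rik), 3.82% of Icam1 (the antisense gene Gm47079) and 11.9% of Nfkb2 (AC114539.1), and Psd shares 4 bases with Nfkb2. How the counting used strand is not given in the sources used here, so reads of these neighbours cannot be told apart there.

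Libraries held 8.49 M to 56.4 M counts in hepatocyte nuclei and 12.2 M to 30.3 M in whole liver nuclei. Summed over 6 hepatocyte markers, mean levels in hepatocyte nuclei were 93.1% to 133% of those in whole liver nuclei in the 9 groups, against 11.9% to 19.5% for 9 Kupffer cell and macrophage markers. Markers of cholangiocytes (bile duct cells) were not depleted. Macrophage RNA was thus reduced but present in the bead-bound nuclei. Values below are CPM (a gene's counts divided by the scaled library total in M), 4 animals a group in the order of animals 1 to 4, and changes are log2 differences with their standard error, adjusted p and call (adjusted p under 0.05) from edgeR's quasi-likelihood test with Benjamini-Hochberg adjustment over all genes tested. In bulk nuclei, fewer cells of a type and less RNA per cell cannot be told apart.

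In livers of PBS animals, levels per kilobase of gene span were highest for the smallest genes of the set. In hepatocyte nuclei of the 16 PBS animals, Nfkbia had 5.81 ± 2.34 and Cxcl1 5.80 ± 1.78 CPM per kilobase (SD, n = 16), and these did not separate. Nfkbiz (1.43 ± 0.28) and Nfkb1 (1.21 ± 0.14) followed and overlapped each other, and their ranges lay below that of Cxcl1 and above that of Rel. Rel (0.51 ± 0.14), Nfkb2 (0.41 ± 0.15), Icam1 (0.36 ± 0.09) and Map3k14 (0.35 ± 0.05) overlapped, and the range of Tnfaip3 (0.22 ± 0.06) overlapped that of Map3k14. Relb was lowest, at 0.064 ± 0.031 CPM per kilobase. Whole liver nuclei gave nearly the same order (Nfkb1 above Nfkbiz and Icam1 above Nfkb2 were the exceptions), with Nfkbia at 5.03 ± 1.11, Cxcl1 at 4.61 ± 1.73 and Relb last at 0.21 ± 0.08 CPM per kilobase. These levels count nascent and intronic RNA as well as mature RNA.

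**Figure D1:**
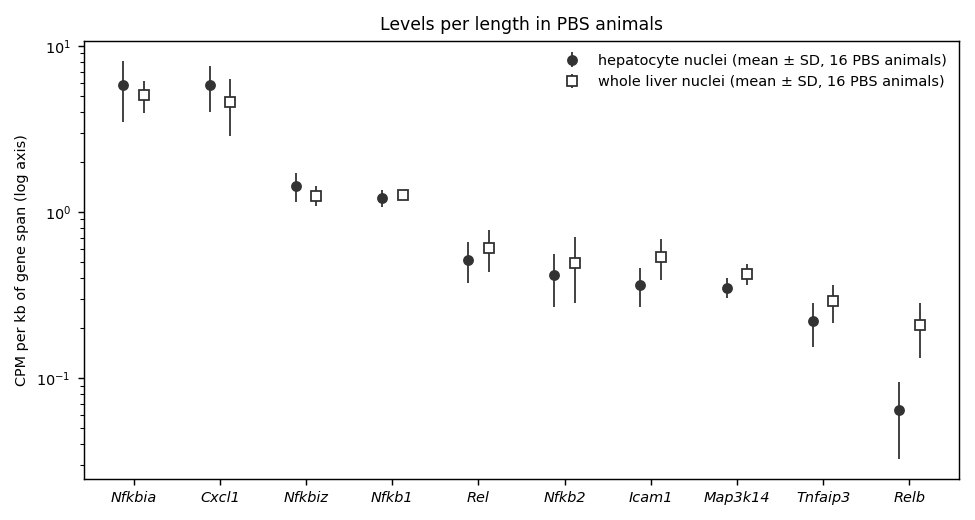
Level of each gene per kilobase of gene span (CPM per kilobase, log axis) in the 16 PBS animals, for hepatocyte and whole liver nuclei; points are means and bars give the SD. Nfkbia and Cxcl1 lie highest in both kinds of nuclei, and Relb is lowest in hepatocyte nuclei.

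Between the kinds of nuclei, Relb stood apart. In PBS animals it was 3.39-fold lower in hepatocyte than in whole liver nuclei (log2 difference -1.76 ± 0.20, edgeR adjusted p = 2.7e-11). Icam1 (-0.57, adjusted p = 2.5e-05), Map3k14 (-0.26, 0.0017), Tnfaip3 (-0.40, 0.037) and Rel (-0.23, 0.037) were also lower in hepatocyte nuclei, and Nfkbiz was higher (0.19, 0.048). Thus 6 of 10 were called, where 50.9% of the 14054 genes tested were. Leaving out 1 PBS animal ended the call of Rel in 9 of 16 cases, of Tnfaip3 in 10 and of Nfkbiz in 4, with adjusted p up to 0.11, 0.073 and 0.087 in edgeR. With the pair of libraries of each animal as a block, edgeR kept all 6 calls, with adjusted p of 0.00034 for Rel, 4.7e-05 for Tnfaip3 and 4.8e-07 for Nfkbiz. Cxcl1 was 0.34 higher in hepatocyte nuclei with an adjusted p of 0.22, and of 8e-07 with the same block in edgeR.

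Between strains, 3 genes were lower in BALB/c than in C57BL/6N PBS animals in both kinds of nuclei. In hepatocyte nuclei the log2 differences were -0.79 ± 0.20 for Nfkb2 (edgeR adjusted p = 0.0019), -1.04 ± 0.34 for Relb (0.014) and -0.55 ± 0.17 for Icam1 (0.0093). In whole liver samples they were -0.85, -0.88 and -0.53 (adjusted p 0.003, 0.001 and 0.0045). Called shares of all genes were 41.2% and 39.6%, so 3 of 10 is not above the background. Library numbers in the labels form a lower series (cohorts C26 and 8025) and a higher one (cohorts NC26 and MC38). Within each series, a split chosen after seeing the data, all 3 genes kept the lower value in BALB/c, in both kinds of nuclei. The pooled difference, on which these genes were picked, is the mean over both series, so the shared direction is no separate support. In hepatocyte nuclei the edgeR adjusted p for Nfkb2, Relb and Icam1 were 0.28, 0.27 and 0.074 in the first series and 0.003, 0.038 and 0.11 in the second. The whole liver values were 0.15, 0.012 and 0.065 in the first series and 0.014, 0.062 and 0.059 in the second, and Map3k14 was called lower in BALB/c in the first (-0.38, 0.024).

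With tumours, the genes that rose in both cachexia models were the kinase Map3k14, the targets Cxcl1 and Icam1, the IkB protein Nfkbiz and the brake Tnfaip3. In 8025 cachexia the subunits Nfkb1, Nfkb2 and Relb also rose. No member was called lower against PBS in edgeR, while DESeq2 called Rel lower in hepatocyte nuclei of C26 pre-cachexia (-0.57, adjusted p = 0.039). In hepatocyte nuclei 5 of 10 were higher in C26 cachexia, where 12.2% of the 13274 genes tested were higher and 22.2% were called in either direction. In C26 pre-cachexia 4 of 10 were higher (4.78% of all genes; 7.72% either way), and in 8025 cachexia 8 of 10 (16.2%; 29.3%). In NC26 animals 2 of 10 were higher (0.316%; 0.324%), and in MC38 animals none was (0% of genes called; no member and 572 genes had an unadjusted p under 0.05 in edgeR, and DESeq2 called no member and 6 genes). Median log2 differences of the 10 members were 0.59 in C26 cachexia, 0.55 in pre-cachexia, 1.70 in 8025 cachexia, 0.31 in NC26 and 0.19 in MC38. The median over all genes lay between -0.017 and 0.011 in these 5 comparisons. Because the members were chosen with earlier results of these data known, their counts and medians beside all genes are a description only. This holds for both kinds of nuclei.

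Called members numbered, in whole liver nuclei, 5 of 10 in C26 cachexia (11.8% of the 13738 genes tested were higher, 22.1% either way), 4 in C26 pre-cachexia (8.72%; 12.8%), 8 in 8025 cachexia (18.7%; 36.6%) and 3 in NC26 (0.706%; 0.728%). MC38 again had none (0%; no member and 790 genes at an unadjusted p under 0.05 in edgeR, and no member and 14 genes in DESeq2). Member medians were 0.48, 0.58, 1.05, 0.43 and 0.18.

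**Figure D2:**
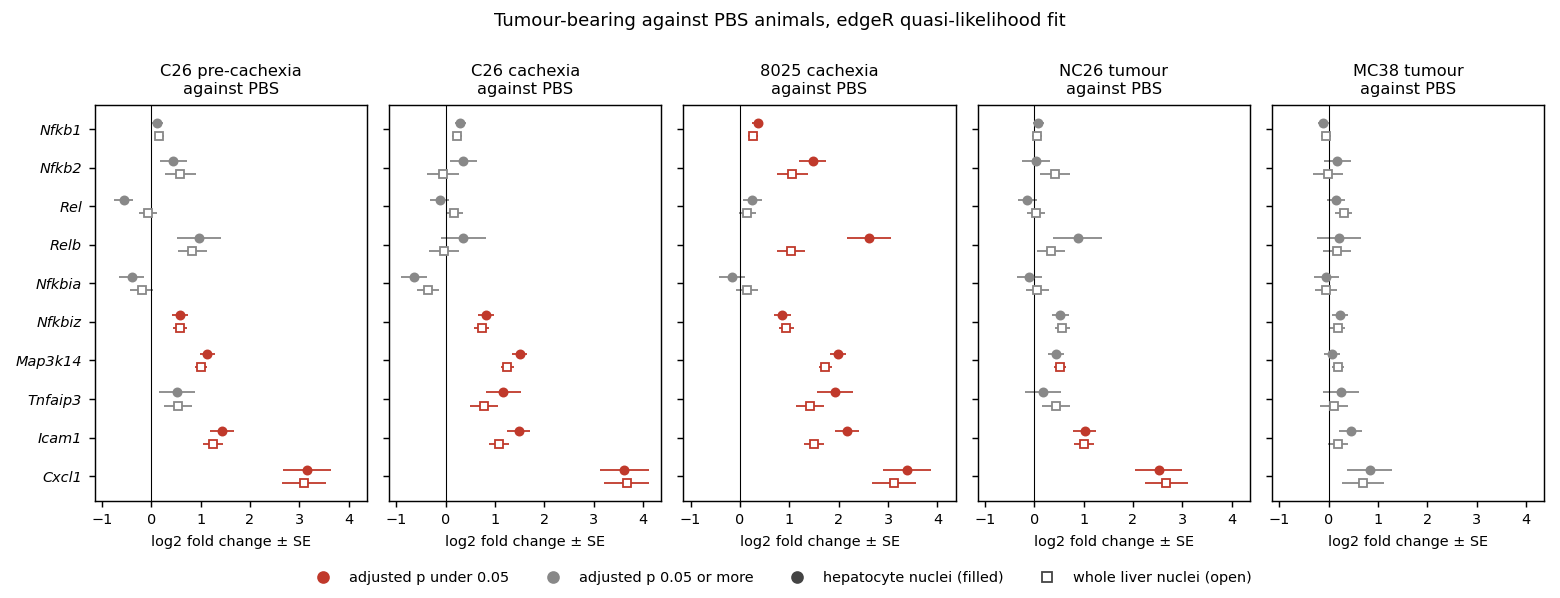
Log2 difference of each gene from the PBS animals of its own cohort, with its standard error, for the 5 tumour groups in hepatocyte nuclei (filled circles) and whole liver nuclei (open squares), with adjusted p under 0.05 in red. Cxcl1 differed most in every group, by 3.62 in C26 and 3.39 in 8025 cachexia in hepatocyte nuclei, and Rel and Nfkbia are grey in all 5 groups.

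Nfkb1, which encodes p105 and its product p50, changed least among the called genes. In hepatocyte nuclei of the 8025 cohort it read 120.2, 114, 110.3 and 119.6 CPM in PBS animals and 137, 140.1, 192 and 128 CPM in cachexia. All 4 cachectic animals lay above all PBS animals, with animal 3 highest. The difference was 0.37 ± 0.11 (edgeR adjusted p = 0.013), 0.22 without cachexia animal 3 (adjusted p 0.13), and 0.38 with only the compared libraries in the fit (0.069). In C26 cachexia the 4 values (153, 145, 148 and 157 CPM) also lay above those of PBS animals (98.3, 131, 139 and 123 CPM), but the difference of 0.30 had an adjusted p of 0.053 in edgeR, 0.046 without PBS animal 3 and 0.044 in DESeq2. Without PBS animal 1, the lowest of the PBS values, it was 0.19 (edgeR adjusted p = 0.22). The 8025 groups overlapped in whole liver nuclei, and the difference of 0.26 (edgeR adjusted p = 0.038) lost its call without cachexia animal 3 (0.18, adjusted p = 0.18) or PBS animal 2, 3 or 4, with no filter on low counts (0.055) and with only the compared libraries (0.19). In NC26 and MC38 hepatocyte nuclei Nfkb1 differed by 0.08 and -0.11, with 95% intervals from -0.14 to 0.31 and from -0.33 to 0.12.

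Nfkb2, which encodes p100 and its product p52, rose in 8025 cachexia. Hepatocyte nuclei read 3.62, 2.73, 4.09 and 3.33 CPM in PBS animals and 6.31, 7.21, 15.1 and 9.39 CPM in cachexia. The groups did not overlap, and animal 3 was highest. The change was 2.78-fold (1.48 ± 0.27, edgeR adjusted p = 0.00015), and 2.22-fold without animal 3. Whole liver nuclei read 1.37, 4.37, 6.62 and 5.18 CPM in PBS animals and 7.51, 9.37, 10.5 and 9.20 CPM in cachexia. The difference was 1.06 (edgeR adjusted p = 0.0069, and 0.057 with only the compared libraries). PBS animal 1 was lowest there, and its library had the smallest share of rRNA-like counts among whole liver libraries (0.94%). The part of that library in the difference is not given here. In C26 cachexia Nfkb2 was not called in either kind of nuclei (0.36 and -0.05, adjusted p 0.37 and 0.94 in edgeR). Without C26 PBS animal 1 the hepatocyte difference was 0.62 (edgeR adjusted p = 0.11).

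Relb, the partner of p52, had the largest change of the subunits and also the largest dependence on 1 animal. In hepatocyte nuclei of the 8025 cohort it read 1.60, 1.53, 3.23 and 2.0 CPM in PBS animals and 4.39, 6.74, 32.2 and 5.95 CPM in cachexia. All 4 cachectic animals were above all PBS animals, and animal 3 was far above the other 3. The change was 6.13-fold (2.61 ± 0.46, edgeR adjusted p = 6.6e-05) with animal 3 and 2.81-fold (1.49, adjusted p = 0.0015) without it. Whole liver nuclei read 6.60, 5.70, 8.61 and 6.46 CPM in PBS animals and 8.68, 10.7, 26.3 and 9.73 CPM in cachexia. There the difference was 1.03 ± 0.28 (edgeR adjusted p = 0.0049), 0.52 without animal 3 (0.11), and 1.05 with only the compared libraries (0.055).

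The same animal 3 stood apart in markers of other cells. On library sizes scaled over both kinds of nuclei, 6 T and NK cell markers summed to 108 CPM in its hepatocyte nuclei, against 18.1, 60.4 and 28.3 CPM in animals 1, 2 and 4 and 6.26 to 27.3 CPM in PBS animals. Its cholangiocyte markers summed to 577 CPM, against 197 to 273 CPM in the other cachectic animals. The part of these cells in the values of Relb, Nfkb1, Nfkb2 and Tnfaip3 in animal 3 was not tested. In the C26 cohort Relb was not called in hepatocyte nuclei, in cachexia (0.36, edgeR adjusted p = 0.62) or pre-cachexia (0.97, 0.19). Its whole liver values in pre-cachexia animals were 5.86, 8.20, 3.31 and 7.03 CPM, against 3.40, 4.21, 2.53 and 3.52 CPM in PBS animals (0.83, adjusted p = 0.057; 1.04 and 0.014 without pre-cachexia animal 3; 0.046 in DESeq2).

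Rel, which encodes c-Rel, a subunit best known from lymphocytes, was called in no tumour comparison with PBS. Its largest difference in hepatocyte nuclei was in C26 pre-cachexia, at 9.63, 11.7, 17.6 and 11.8 CPM against 14.7, 15.8, 19.8 and 23.9 CPM in PBS animals. These groups overlapped through animal 3, and the difference of -0.55 ± 0.19 had an adjusted p of 0.069 in edgeR. It passed the threshold without pre-cachexia animal 3 or PBS animal 1 (-0.75 and -0.66, adjusted p 0.013 and 0.031) and in DESeq2 (0.039). In 8025 cachexia it differed by 0.25, with a 95% interval from -0.14 to 0.64, in hepatocyte nuclei. The 8025 difference of 0.15 in whole liver nuclei became 0.45 (edgeR adjusted p = 0.032) without PBS animal 1, which read 32.4 CPM against 15.6 to 19.3 CPM in the other PBS animals.

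**Figure D3:**
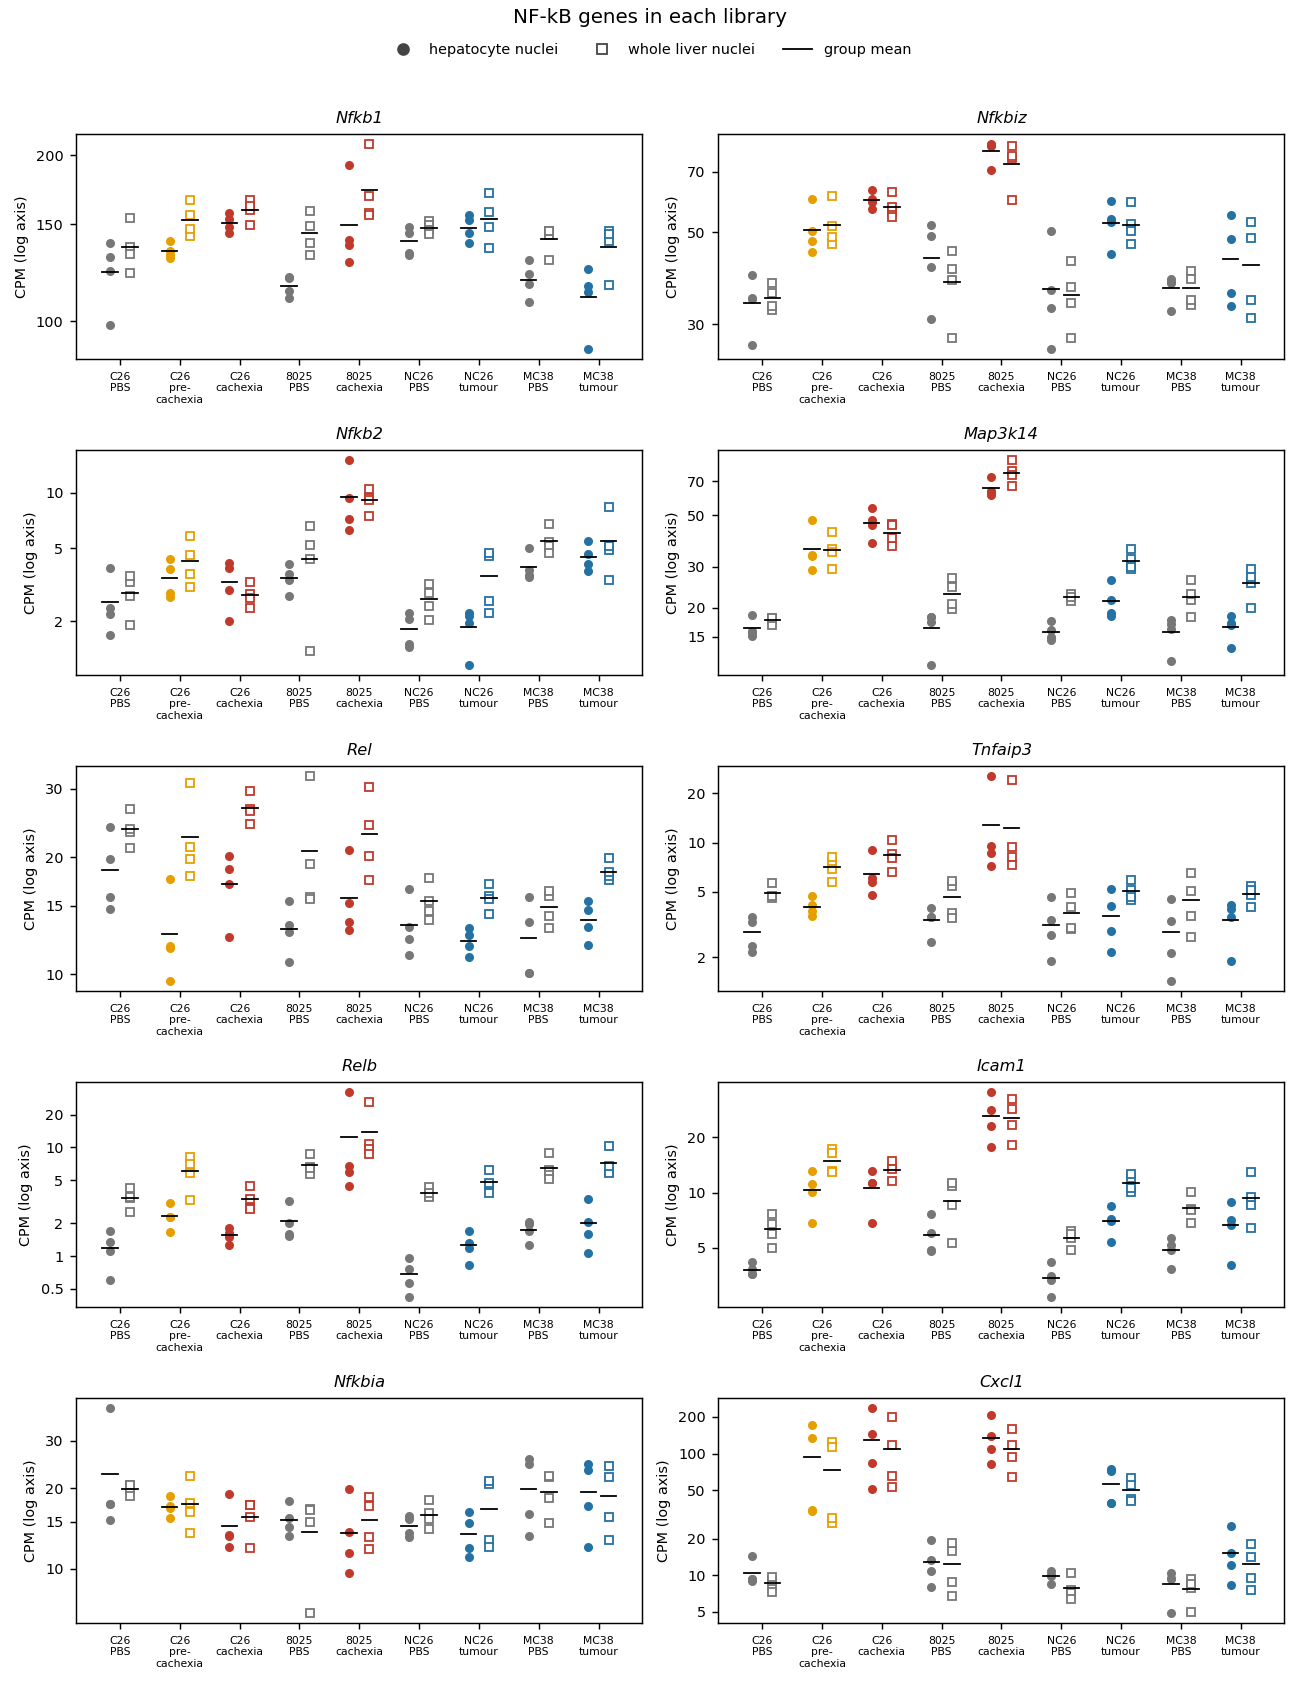
CPM (log axis) of the 10 genes in every library, by cohort and arm, with hepatocyte nuclei as filled circles and whole liver nuclei as open squares; each point is 1 animal and the bars are group means. Cxcl1, Icam1 and Map3k14 lie above the PBS animals in all 8 cachectic animals in both kinds of nuclei, and 8025 cachexia animal 3 stands out for Relb (32.2 CPM) and Tnfaip3 (25.4 CPM) in hepatocyte nuclei.

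Nfkbia, which encodes IkB-alpha and is itself a known NF-kB target, was not called in any tumour group. Hepatocyte nuclei read 39.8, 17.5, 17.5 and 15.3 CPM in C26 PBS animals, 13.2, 19.1, 13.4 and 12.1 CPM in cachexia and 18.6, 15.5, 17.1 and 16.9 CPM in pre-cachexia. PBS animal 1 was high and the other values overlapped. Its library also had the largest share of rRNA-like counts among hepatocyte libraries (7.0%), whose part in the value was not tested. The cachexia difference was -0.64 ± 0.26 (edgeR adjusted p = 0.072). Without PBS animal 1 it was -0.23 (0.50), and without cachexia animal 2, PBS animal 2 or PBS animal 4 it passed the threshold (-0.82 to -0.76, 0.034 to 0.049). In 8025 cachexia the hepatocyte values of 9.65, 11.5, 19.8 and 13.7 CPM overlapped those of PBS animals (15.4, 14.3, 13.2 and 17.9 CPM). That difference was -0.16, with a 95% interval from -0.69 to 0.37. Cachectic animals of the C26 cohort read 15.7, 17.3, 12 and 17.3 CPM in whole liver nuclei, and all lay below the PBS animals (19.8, 18.8, 20.6 and 20.5 CPM), with a difference of -0.36 (edgeR adjusted p = 0.28).

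Nfkbiz, which encodes IkB-zeta, a nuclear IkB protein that assists the induction of secondary targets, rose in both cachexia models. In hepatocyte nuclei C26 PBS animals read 26.8, 34.6, 39.5 and 34.4 CPM, pre-cachexia animals 60.1, 44.8, 50.3 and 47.7 CPM and cachectic animals 60.0, 63.2, 56.8 and 59.1 CPM. Neither tumour group overlapped the PBS animals. The change was 1.77-fold in cachexia (0.82 ± 0.17, edgeR adjusted p = 0.00067) and 1.5-fold in pre-cachexia (0.58 ± 0.17, adjusted p = 0.031). The pre-cachexia call ended without PBS animal 1, 2 or 4 or pre-cachexia animal 1 (0.47 to 0.58, adjusted p 0.061 to 0.14) and with only the compared libraries in the fit (adjusted p 0.09). In 8025 cachexia the values were 81.2, 70.8, 80.8 and 81.6 CPM, against 41.2, 30.9, 49.0 and 52.1 CPM in PBS animals. That was 1.82-fold (0.86 ± 0.17, adjusted p = 0.00029), without overlap.

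Whole liver nuclei gave Nfkbiz differences of 0.73 in C26 cachexia, 0.58 in pre-cachexia and 0.94 in 8025 cachexia (edgeR adjusted p 0.00057, 0.0097 and 1.1e-05). The pre-cachexia call there ended without pre-cachexia animal 1 (0.48, 0.062). In NC26 whole liver nuclei all 4 tumour animals (59.2, 47.0, 52.3 and 50.3 CPM) lay above the PBS animals (36.9, 27.8, 42.6 and 33.7 CPM), at 0.57 with an adjusted p of 0.07 in edgeR and 0.032 in DESeq2. In MC38 animals the difference was 0.23 in hepatocyte and 0.19 in whole liver nuclei, with upper 95% limits of 0.57 and 0.49.

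Map3k14 gave the smallest p of the 10 genes in both cachexia groups. In hepatocyte nuclei C26 PBS animals read 18.5, 15.7, 15.1 and 16 CPM, pre-cachexia animals 33.3, 33.8, 47.7 and 28.9 CPM and cachectic animals 53.7, 38.1, 47.4 and 45.3 CPM. In the 8025 cohort PBS animals read 18.3, 18.2, 17.4 and 11.4 CPM and cachectic animals 62.7, 63.7, 60.8 and 73.3 CPM. All 12 animals of these tumour groups lay above all of their PBS animals. The change was 2.20-fold in pre-cachexia (1.14 ± 0.16, edgeR adjusted p = 0.00017), 2.83-fold in C26 cachexia (1.5 ± 0.16, adjusted p = 1e-07) and 3.98-fold in 8025 cachexia (1.99 ± 0.16, adjusted p = 6.6e-10).

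Whole liver nuclei gave Map3k14 changes of 2.01-fold, 2.38-fold and 3.32-fold in the same groups (edgeR adjusted p 4.7e-06, 1.1e-08 and 1.1e-11). NC26 animals read 26.4, 18.5, 19.0 and 21.7 CPM in hepatocyte nuclei, all above their PBS animals (16.1, 17.5, 14.9 and 14.5 CPM), but 0.44 had an adjusted p of 0.25. In NC26 whole liver nuclei the values were 35.7, 29.5, 32.5 and 29.9 CPM against 22.4, 23.0, 21.3 and 22.3 CPM, and the difference of 0.52 ± 0.12 was called (edgeR adjusted p = 0.035; 0.051 with no filter on low counts). That call ended in 7 of 8 fits that left out 1 animal, all except NC26 animal 2 (adjusted p 0.055 to 0.15). In MC38 hepatocyte nuclei Map3k14 differed by 0.07, with a 95% interval from -0.25 to 0.40.

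Tnfaip3 encodes A20, a ubiquitin-editing enzyme that shuts off signalling to NF-kB. In hepatocyte nuclei C26 PBS animals read 2.33, 3.54, 3.30 and 2.16 CPM and cachectic animals 6.07, 9.03, 5.73 and 4.78 CPM. The groups did not overlap, and the change was 2.25-fold (1.17 ± 0.36, edgeR adjusted p = 0.018). The call ended without cachexia animal 2 (0.95, 0.070) or PBS animal 4 (1.05, 0.058). Pre-cachexia animals read 4.69, 3.85, 3.56 and 4.18 CPM, all above the PBS animals, with 0.52 and an adjusted p of 0.40. In whole liver nuclei of C26 cachexia the difference of 0.78 (edgeR adjusted p = 0.043) ended in 7 of 8 fits that left out 1 animal, all except cachexia animal 4 (adjusted p 0.052 to 0.13), and with no filter on low counts (0.057).

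In the 8025 cohort Tnfaip3 read 3.54, 2.49, 3.98 and 3.52 CPM in hepatocyte nuclei of PBS animals and 7.25, 8.63, 25.4 and 9.49 CPM in cachexia. All cachectic animals were higher, animal 3 most of all, as for Relb. The change was 3.80-fold (1.92 ± 0.37, edgeR adjusted p = 0.00019), and 2.51-fold without animal 3 (adjusted p = 0.0033). Whole liver nuclei read 5.42, 3.74, 3.49 and 5.85 CPM against 7.28, 9.43, 24.2 and 8.14 CPM (1.42, adjusted p = 0.00022), and 0.85 without animal 3 (0.0055). In NC26 and MC38 animals Tnfaip3 was not called, at 0.18 and 0.26 in hepatocyte nuclei.

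Icam1 rose in 4 of the 5 tumour groups. In hepatocyte nuclei C26 PBS animals read 3.59, 3.82, 4.20 and 3.59 CPM, pre-cachexia animals 11.2, 10.1, 13.2 and 6.79 CPM and cachectic animals 11.2, 13.1, 11.3 and 6.83 CPM. In the 8025 cohort PBS animals read 4.89, 4.82, 7.65 and 6.00 CPM and cachectic animals 17.6, 23.0, 35.4 and 28.0 CPM. No tumour animal of these groups fell within the PBS range. The change was 2.70-fold in pre-cachexia (1.44 ± 0.24, edgeR adjusted p = 0.00042), 2.79-fold in C26 cachexia (1.48 ± 0.24, adjusted p = 3.4e-05) and 4.51-fold in 8025 cachexia (2.17 ± 0.24, adjusted p = 9.8e-08).

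NC26 hepatocyte nuclei read 7.03, 5.35, 7.18 and 8.51 CPM of Icam1, all above the PBS animals (3.33, 2.71, 3.52 and 4.21 CPM). The difference of 1.02 ± 0.24 lay just under the threshold in edgeR (adjusted p = 0.0496; 0.051 with no filter on low counts) and ended in 7 of 8 fits that left out 1 animal, all except NC26 animal 2 (adjusted p 0.066 to 0.22). In NC26 whole liver nuclei it was 1.0 ± 0.20 (edgeR adjusted p = 0.011), and the call ended without PBS animal 1 or 3 (adjusted p up to 0.06). Whole liver nuclei gave 2.37-fold, 2.11-fold and 2.84-fold in C26 pre-cachexia, C26 cachexia and 8025 cachexia (edgeR adjusted p 0.00014, 0.00022 and 7.5e-07). MC38 animals differed by 0.45 in hepatocyte nuclei, with a 95% interval from -0.03 to 0.92.

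Cxcl1 had the largest change of the 10 genes in each of these 4 tumour groups. Hepatocyte nuclei read 9.04, 14.4, 9.30 and 9.26 CPM in C26 PBS animals, 173, 34.3, 135.0 and 33.9 CPM in pre-cachexia and 237, 83.1, 146 and 51.4 CPM in cachexia. Animals within a C26 tumour group differed several-fold among themselves, and the lowest was still above all PBS animals. The change was 8.93-fold in pre-cachexia (3.16 ± 0.48, edgeR adjusted p = 0.00027) and 12.3-fold in cachexia (3.62 ± 0.49, adjusted p = 3.4e-06). In the 8025 cohort PBS animals read 13.3, 7.92, 10.9 and 19.4 CPM and cachectic animals 108, 138, 82.2 and 209 CPM, 10.5-fold more (3.39 ± 0.49, adjusted p = 5.1e-06). Animal 3, the highest for Relb and Tnfaip3, was the lowest of the 4 for Cxcl1.

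NC26 hepatocyte nuclei read 74.3, 39.5, 71.6 and 38.9 CPM of Cxcl1, against 9.96, 8.42, 9.83 and 10.9 CPM in PBS animals. The groups lay far apart, at 5.73-fold (2.52 ± 0.47, edgeR adjusted p = 0.013), yet the call ended without PBS animal 1 or 2 (2.46 to 2.54, adjusted p 0.053 and 0.064). MC38 animals read 8.29, 25.1, 12.1 and 15.3 CPM against 10.4, 4.91, 9.47 and 9.35 CPM and overlapped, with 0.83 and a 95% interval from -0.10 to 1.77. In whole liver nuclei the changes were 8.55-fold in C26 pre-cachexia, 12.7-fold in C26 cachexia, 8.67-fold in 8025 cachexia and 6.39-fold in NC26 (edgeR adjusted p 3.3e-05, 4.7e-07, 1.8e-06 and 0.0013).

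Cachectic and pre-cachexia C26 animals were compared directly. No member was called in either kind of nuclei, where 9.09% and 11.6% of all genes were. Unadjusted p values of edgeR were under 0.05 for 2 members in hepatocyte nuclei (Rel 0.43 and Map3k14 0.36, adjusted p 0.17 and 0.16) and for 1 in whole liver nuclei (Relb -0.86, adjusted p = 0.053). DESeq2 called 0 and 1. Leaving out pre-cachexia animal 3 brought Rel (0.63, 0.030) and Map3k14 (0.53, 0.024) past the threshold in hepatocyte nuclei, and leaving out pre-cachexia animal 3 or cachexia animal 1 did so for Relb in whole liver nuclei (-1.07 and -1.0, adjusted p 0.013 and 0.041). For Cxcl1 and Icam1 the differences were 0.46 and 0.04 in hepatocyte nuclei, with 95% intervals from -0.44 to 1.36 and from -0.42 to 0.51.

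Tumours with and without cachexia were compared within a strain by testing the difference of their changes against PBS. Kind of tumour and library number series coincide, so the difference cannot be told apart from one between the series. Between C26 cachexia and NC26 animals the one member called was Map3k14, whose change in C26 cachexia was larger by 1.06 ± 0.22 in hepatocyte and 0.73 ± 0.18 in whole liver nuclei (edgeR adjusted p 0.0083 and 0.016). Shares of all genes called were 1.89% and 3.4%. Cxcl1 and Icam1 were not called, with differences of 1.10 and 0.46 in hepatocyte nuclei and 95% intervals from -0.20 to 2.4 and from -0.22 to 1.14.

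In the other strain the change in 8025 cachexia exceeded that in MC38 animals for 6 members in hepatocyte nuclei, where 7.21% of genes were called. The excess was 1.92 ± 0.22 for Map3k14, 1.73 ± 0.33 for Icam1, 2.55 ± 0.65 for Cxcl1, 1.30 ± 0.38 for Nfkb2, 2.41 ± 0.63 for Relb and 1.67 ± 0.51 for Tnfaip3 (edgeR adjusted p 1.2e-05, 0.0016, 0.014, 0.034, 0.017 and 0.042). Without 8025 cachexia animal 3 the first 3 remained, and Nfkb2 (0.97, adjusted p 0.11), Relb (1.27, 0.098) and Tnfaip3 (1.06, 0.16) were not called. Nfkb2 also lost its call without any of 6 other animals, and Tnfaip3 without any of 7 others. With only the compared libraries in the fit Relb (0.084) and Tnfaip3 (0.099) were not called, nor was Tnfaip3 with no filter on low counts (0.052). In whole liver nuclei 5 members were called, where 13.5% of genes were: Nfkbiz 0.76, Map3k14 1.53, Tnfaip3 1.30, Icam1 1.32 and Cxcl1 2.42 (edgeR adjusted p 0.016, 1.2e-06, 0.028, 0.0022 and 0.0069). There Tnfaip3 was lost without cachexia animal 3 (0.74, 0.13) or any of 4 others.

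Between the 2 cachexia models no member passed the test of a difference in change, where 0.957% and 6.57% of all genes did in hepatocyte and whole liver nuclei. Unadjusted p values of edgeR were under 0.05 for 4 and 3 members, and DESeq2 called 1 and 0. In hepatocyte nuclei the C26 change was smaller for Relb by 2.26 on the log2 scale (a difference of -2.26, edgeR adjusted p = 0.078; -1.15 and 0.34 without 8025 cachexia animal 3; 0.029 without 8025 cachexia animal 1). The difference for Cxcl1 was 0.23, with a 95% interval from -1.06 to 1.53, and for Map3k14 -0.49, from -0.95 to -0.04. The whole liver difference for Map3k14 was -0.48 (adjusted p = 0.095), and -0.56 without 8025 PBS animal 3 (0.045).

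Tumour changes in hepatocyte nuclei were set against those in whole liver nuclei. No member was called in any of the 5 tests (0.0427% of 14054 genes called for 8025 cachexia, 0% for the others). Members with an unadjusted p under 0.05 in edgeR were 2 in 8025 cachexia (Relb 1.61, adjusted p = 0.68, and Icam1 0.69, adjusted p = 1) and 0 in the other 4 tests, and DESeq2 called 0 members in all 5. With the pair of libraries of each animal as a block in edgeR, the 8025 change of Relb was larger in hepatocyte nuclei by 1.33 (adjusted p = 0.0031). It was 1.03 (0.035) with the block and without cachexia animal 3.

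Per animal, Relb in hepatocyte nuclei was 26.9%, 29.4%, 40.6% and 33.9% of its whole liver level in 8025 PBS animals and 57.6%, 69.2%, 134% and 68.2% in cachexia. These did not overlap. Summed Kupffer cell and macrophage markers moved from 15.9% ± 2.0 to 18.5% ± 3.04 (SD, n = 4) in the same animals, and T and NK cell markers from 29.8% ± 6.77 to 75.5% ± 21.9. The part of T and NK cell RNA in the Relb values was not tested. Icam1 moved from 74.7% ± 20.1 to 112% ± 5.56. Cxcl1 averaged 118% to 147% of its whole liver level over the 9 groups, while neutrophil markers were at 18.4% and 19.7% in 8025 cachexia and PBS animals. Cholangiocyte markers averaged 91.3% to 130% and hepatocyte markers 93.1% to 133% over the same groups, so this percentage cannot tell these cells apart. The cell source of Cxcl1 was not tested.

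**Figure D4:**
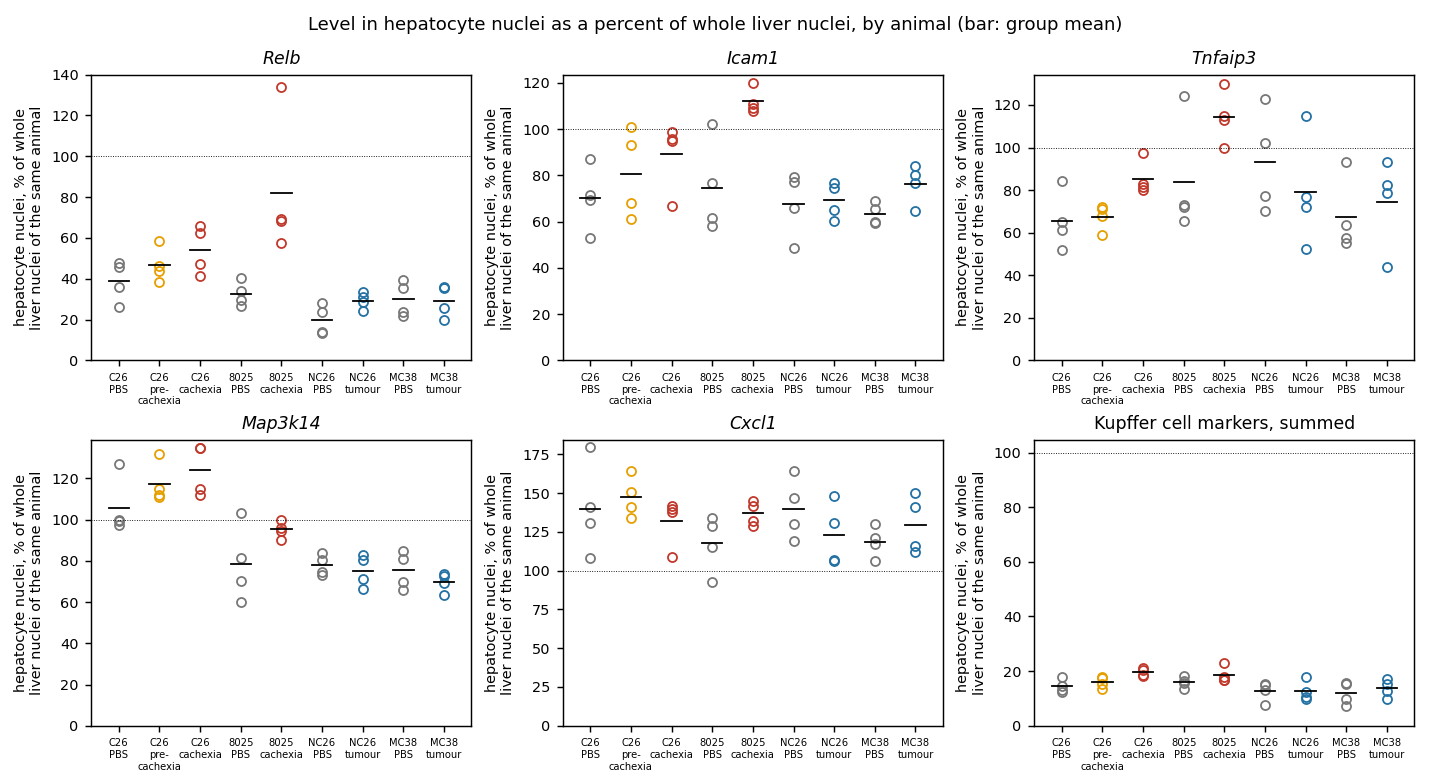
Level in hepatocyte nuclei as a percentage of the level in whole liver nuclei of the same animal, by group, for 5 of the genes and for the summed Kupffer cell markers; points are animals, horizontal bars are group means, and the dotted line marks 100%. Relb lies at 26.9% to 40.6% in 8025 PBS animals and at 57.6% to 134% in cachexia.

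Markers of several kinds of non-hepatocyte cells differed between tumour and PBS animals in hepatocyte nuclei. The 9 Kupffer cell and macrophage markers summed to 42.5 to 53.5 CPM in 8025 PBS animals and 129 to 162 CPM in cachexia, and 8 of 9 were called higher. In the C26 cohort they summed to 43.9 to 71.5 CPM in PBS animals, 74.1 to 93.6 CPM in pre-cachexia and 79.4 to 118 CPM in cachexia, with 6 of 9 higher in each. In NC26 and MC38 animals the sums reached 66.3 and 67.7 CPM, against up to 44.5 and 55.4 CPM in PBS animals, with 0 of 9 called. T and NK cell markers summed to 12.59 to 18.15 CPM in NC26 animals, against 4.811 to 9.406 CPM in their PBS animals. Cholangiocyte markers gave 210.1 to 249.5 against 128.2 to 174.5 CPM there, and monocyte markers 3.294 to 4.02 against 1.138 to 2.565 CPM. Neutrophil markers gave 0.7866 to 0.9746 against 0.2069 to 0.6515 CPM. Of these markers, S100a8, S100a9, Cxcr2, Mmp8 and Retnlg were at 0 in the NC26 cohort's PBS animals. S100a8 and Retnlg were at 0 in NC26 tumour animals too, so these sums are near the floor. B cell, endothelial and stellate cell sums overlapped in the NC26 cohort. In 8025 animals 6 monocyte markers summed to between 1.33 and 2.61 CPM with PBS and between 6.79 and 11.8 CPM in cachexia, where Ly6c2 was at 0 and 4 of 5 tested were called higher. Neutrophil markers, 7 in all, summed to between 0.646 and 1.25 CPM and between 6.74 and 10.3 CPM, with Mmp8 and Retnlg at 0 in the PBS animals and 1 of 1 tested called higher. Stellate cell and fibroblast markers, 8 in all, summed to between 82.5 and 111 CPM in 8025 PBS animals and between 47.1 and 73 CPM in cachexia, without overlap, with 3 called higher and 1 lower. B cell markers gave 10.11 to 12.49 CPM in 8025 PBS animals and 13.23 to 17.27 CPM in cachexia. T and NK cell, cholangiocyte and endothelial sums overlapped there. Endothelial markers, 9 in all, summed to between 165 and 267 CPM in C26 PBS animals and between 257 and 370 CPM in C26 cachexia, with overlap and 2 called higher. In C26 pre-cachexia monocyte markers summed to 5.127 to 6.094 CPM, against 2.657 to 3.586 CPM in PBS animals. Neutrophil markers gave 1.51 to 2.141 against 0.4629 to 1.444 CPM there, with 4 at 0 in the PBS animals. B cell markers gave 11.61 to 19.75 against 8.1 to 10.14 CPM. In C26 cachexia these sums overlapped those of PBS animals. T and NK cell and cholangiocyte sums overlapped in pre-cachexia. Of all genes tested in hepatocyte nuclei, 16.2% were higher and 29.3% called either way in 8025 cachexia. These shares were 12.2% and 22.2% in C26 cachexia, 4.78% and 7.72% in pre-cachexia, 0.316% and 0.324% in NC26, and 0% in MC38. Nothing is read from the stellate and endothelial counts beside these shares. The part of these cells in the changes of the members was not tested.

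Other genes of the pathway, 75 in all and also listed with earlier results of these data known, were counted by role. In hepatocyte nuclei 61 were tested, of which 15 were higher and 6 lower in C26 cachexia, 9 and 1 in pre-cachexia, 23 and 5 in 8025 cachexia, 2 and 0 in NC26, and 0 and 0 in MC38. Over all genes tested there, 12.2% were higher and 22.2% called in C26 cachexia, 4.78% and 7.72% in pre-cachexia, and 16.2% and 29.3% in 8025 cachexia. Of the same 75, 65 were tested in whole liver nuclei, with 17 and 6, 17 and 1, 27 and 9, 3 and 0, and 0 and 0, in the same order of groups. The shares of all genes there were 11.8% higher and 22.1% called in C26 cachexia, 8.72% and 12.8% in pre-cachexia, and 18.7% and 36.6% in 8025 cachexia. Median log2 differences in hepatocyte nuclei were 0.12, 0.25, 0.39, 0.09 and 0.05. Rela, the main partner of p50, was not called in either cachexia model, with differences of -0.24 and 0.00 in hepatocyte nuclei (edgeR adjusted p 0.32 and 1). Of the other subunits and IkB proteins, 4 were tested in hepatocyte nuclei, and Nfkbie (IkB-epsilon) was higher in C26 (0.80) and 8025 cachexia (1.32; edgeR adjusted p 0.015 and 0.00015), with Nfkbib (IkB-beta) in 8025 (0.54, 0.031).

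Among 21 kinases and adapters in hepatocyte nuclei, 4 were higher and 3 lower in C26 cachexia, and 6 and 2 in 8025 cachexia. The background to these and the following counts by role is the 22.2% and 29.3% of all genes called in either direction, and nothing particular to a role is read from them. Map3k8, a kinase held in complex with p105, was higher by 1.95 ± 0.24 and 1.78 ± 0.24 (edgeR adjusted p 7e-07 and 1.5e-06). Irak4, a kinase of IL-1 receptor signalling, was higher by 1.06 and 0.80. Of 9 receptors, 4 were higher and 1 lower in C26 cachexia, and 5 and 1 in 8025 cachexia. Il1r1, the IL-1 receptor, was higher by 2.66 ± 0.47 and 3.06 ± 0.47 (edgeR adjusted p 0.00011 and 1.4e-05), while its partner chain Il1rap was lower by 1.09 in 8025 cachexia (a difference of -1.09, 0.0012). Tnfrsf1a, the main TNF receptor, was higher by 0.99 in C26 cachexia.

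Of the 8 ligands, 3 were tested in hepatocyte nuclei, and Il1b alone was called, in 8025 cachexia (3.33 ± 0.61, edgeR adjusted p = 0.00013). In whole liver nuclei it was higher by 3.74. Among 8 feedback genes 1 was higher in C26 cachexia, and 2 were higher and 1 lower in 8025 cachexia. Tnip2, which binds A20 and p105, was higher in both (1.46 and 0.90), and Tnip1, an A20 partner, in 8025 cachexia (0.71; edgeR adjusted p 1e-06, 0.00038 and 0.0017). Of 16 other targets tested, 5 were higher and 2 lower in C26 cachexia and 7 and 1 in 8025 cachexia. Lcn2, an iron-binding acute phase protein, was higher by 5.38 ± 0.79 and 8.14 ± 1.0 (edgeR adjusted p 9.4e-06 and 4.9e-07), Gadd45b, a stress response gene, by 3.26 in C26 cachexia, and Csf1, a macrophage growth factor, by 1.93 in 8025 cachexia.

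The rule for naming, which takes the smallest p in each fit, was also applied to whole liver nuclei and named partly other genes. In C26 cachexia Nfkbib was higher by 0.67, Map3k8 by 1.15, Irak4 by 0.90, Il1r1 by 2.58, Tnfrsf1a by 1.02, Tnip2 by 1.20, Lcn2 by 7.0 and Gadd45b by 3.09, all called in edgeR. Tnfsf13b, which encodes the B cell growth factor BAFF, a known activator of the alternative branch, was higher by 0.69 (edgeR adjusted p = 0.04). In 8025 cachexia Nfkbib was higher by 0.68, Map3k8 by 1.40, Irak4 by 0.86, Tnfrsf1a by 1.06, Tnip2 by 0.93, Tnip1 by 0.66 and Lcn2 by 6.78. Nfkbid, a nuclear IkB protein, was higher there by 1.25, Tnfrsf11a, the receptor RANK, by 1.68 and the early response gene Ier3 by 3.27. Rela again was not called (-0.18 in C26 and 0.05 in 8025 cachexia, edgeR adjusted p 0.43 and 0.82).

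The pattern of each gene over the 36 hepatocyte libraries was described by the correlation of log2 CPM after the mean of the PBS libraries of the same cohort was subtracted. These libraries share animals' groups, depth and cell content, so r is a description. Among members, Cxcl1 and Icam1 (r = 0.891), Icam1 and Map3k14 (0.883), Cxcl1 and Nfkbiz (0.872) and Cxcl1 and Map3k14 (0.859) were most alike. Rel (at most 0.147) and Nfkbia (at most 0.122, both with Nfkb2) followed no other member, and Nfkbia and Nfkb1 had r = -0.463. C26 PBS animal 1, the highest of its group in Nfkbia (39.8 CPM) and the lowest in Nfkb1 (98.3 CPM), enters that r. Its part was not tested. Of 11387 genes averaging 1 CPM or more, the most alike was Slc37a1 for Cxcl1 (0.954), Mcf2l for Map3k14 (0.939), Fgr for Icam1 (0.921), Map3k8 for Nfkbiz (0.911), Rhbdf2 for Nfkb2 (0.895), Nubpl for Nfkb1 (0.877), Iqgap1 for Relb (0.872), Myadm for Tnfaip3 (0.839), Acer3 for Rel (0.805) and Mknk2 for Nfkbia (0.795).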

How the data were processed

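RNA of liver nuclei was sequenced without poly(A) selection from a stranded kit (50-base paired ends), per the labels' protocols. The authors deposited a table of raw counts per gene over gene spans, with introns, per the file headers. STAR 2.4.2a, DESeq2 1.24.0 and the build mm10 are named in the submitters' processing notes; how strand was used in counting is not given in the sources used here. All 72 libraries mapped to 1 column each, and 0 columns were left over.

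Libraries of each kind of nuclei were fitted together, 9 groups at a time, with edgeR 4.0.16 in R 4.3.3 (TMM scaling, filterByExpr, quasi-likelihood test, Benjamini-Hochberg adjustment, called at an adjusted p under 0.05). That left 13274 genes in hepatocyte and 13738 in whole liver nuclei. Comparisons between the kinds of nuclei used a joint fit of 14054 genes. Total counts were 8.49 M to 56.4 M (median 26.1 M) in hepatocyte and 12.2 M to 30.3 M (median 20.1 M) in whole liver nuclei. The fit of hepatocyte nuclei was tested on simulated data with 200 changed genes, for C26 cachexia against PBS only. The whole liver, joint and blocked fits were not tested in this way. Libraries of a group differed beyond counting noise in all 108 pairs, so each animal counts as 1 replicate. Libraries of the same animal mostly deviated together (36 animals, r from -0.218 to 0.854, median 0.608, 35 over 0.1), and the animal id in the labels pairs them.

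The members and gene lists were chosen with earlier results of these data known. All 10 members are named in every comparison. Of the other pathway genes, Rela and the 2 called genes of each list with the smallest p in each cachexia group and kind of nuclei are named. Log2 CPM for likeness used a prior count of 2. Alternatives were DESeq2 1.42.0, other scalings, no filter, only the compared libraries, blocks and leaving out each animal. The split by library number and the animal block without 8025 cachexia animal 3 were chosen after seeing the data. Sequences are from RefSeq.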

Additional observations from a re-analysis of the deposited data

Results flagged for a closer look

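Among 180 sets of 4 libraries (10 genes in 18 groups), 11 held a library whose gap to the nearest other exceeded Dixon's 95% critical value, where chance alone gives about 1 in 20. Of these, 4 were 8025 cachexia animal 3. It had 32.19 CPM of Relb in hepatocyte nuclei (the others 4.392 to 6.738) and 26.33 CPM in whole liver nuclei (8.684 to 10.68). Its Tnfaip3 was 25.45 CPM in hepatocyte nuclei (7.246 to 9.494) and 24.22 CPM in whole liver nuclei (7.284 to 9.428).

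In hepatocyte nuclei C26 PBS animal 1 had 39.78 CPM of Nfkbia (the others 15.27 to 17.49), and C26 PBS animal 2 had 14.37 CPM of Cxcl1 (9.036 to 9.3). Low values there were 11.39 CPM of Map3k14 in 8025 PBS animal 4 (17.45 to 18.29), 70.75 CPM of Nfkbiz in 8025 cachexia animal 2 (80.8 to 81.61) and 32.29 CPM of Nfkbiz in MC38 PBS animal 2 (37.72 to 38.63). In whole liver nuclei MC38 PBS animal 4 was low in Nfkb1, at 129.2 CPM (143.6 to 145.8). C26 PBS animal 3 was high in Tnfaip3, at 5.65 CPM (4.565 to 4.694).

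The change against PBS differed between tumours of the same strain in 13 tests, by the edgeR test of the difference itself. For C26 cachexia against NC26 this was Map3k14, by 1.057 in hepatocyte and 0.73 in whole liver nuclei (log2). For 8025 cachexia against MC38 it was, in hepatocyte nuclei, Nfkb2 (1.30), Relb (2.41), Map3k14 (1.92), Tnfaip3 (1.67), Icam1 (1.73) and Cxcl1 (2.55), and in whole liver nuclei Nfkbiz (0.76), Map3k14 (1.53), Tnfaip3 (1.30), Icam1 (1.32) and Cxcl1 (2.42). Shares of all genes called were 1.89% and 3.4% for C26 against NC26, and 7.21% and 13.5% for 8025 against MC38. In the latter, 16 fits left out 1 animal each. The hepatocyte call ended in 7 for Nfkb2, 8 for Tnfaip3 and 1 for Relb. The whole liver call of Tnfaip3 ended in 5. All of these calls ended without 8025 cachexia animal 3.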

How the results depend on the processing

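No value changed direction past a threshold in any alternative run. Leaving out 1 animal gave, in hepatocyte and whole liver nuclei, 5 to 6 and 4 to 5 members called in C26 cachexia, 3 to 5 in both for pre-cachexia, 7 to 8 and 6 to 9 in 8025 cachexia, 0 to 2 and 1 to 3 in NC26, and 0 in MC38. The tests of differences gave 3 to 7 and 4 to 6 for 8025 against MC38, 1 in each for C26 against NC26, 0 to 1 in each for C26 against 8025, and 0 to 2 and 0 to 1 for cachexia against pre-cachexia. Strain gave 3 to 5 in each, and hepatocyte against whole liver nuclei 4 to 6.

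With only the compared libraries in the fit, 5 rather than 8 members were called in 8025 whole liver nuclei, 3 rather than 5 for 8025 against MC38 there (4 rather than 6 in hepatocyte nuclei), and 1 rather than 2 in NC26 hepatocyte nuclei, as also with no filter (1). DESeq2 called 1 rather than 0 for C26 against 8025 in hepatocyte nuclei and for cachexia against pre-cachexia in whole liver nuclei, and 4 rather than 3 in NC26 whole liver nuclei. Within the PBS animals of the C26 and 8025 cohorts 0 rather than 3 differed by strain in hepatocyte nuclei, and within those of NC26 and MC38 1 in whole liver nuclei. The cause was not tested. Shares of all genes called are not given beside these counts or those with 1 animal left out, so the counts are a description only.

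Replicate numbers shared by groups of a cohort did not pair animals (correlations -0.266 to 0.395, own number best in at most 2 of 4). The replicate block gave 1 rather than 0 for cachexia against pre-cachexia and 0 rather than 1 for C26 against NC26, both in whole liver nuclei. The animal block, which pairs by design, gave 1 rather than 0 for the 8025 effect between kinds of nuclei, also without animal 3 (1).

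Low counts limit Relb, Tnfaip3 and Nfkb2, whose hepatocyte levels with PBS were below 6 CPM in every library.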
